A study of Bos taurus with 19 samples.

Results

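The Ensembl gene identifiers ENSBTAG00000020495 and ENSBTAG00000007884, were followed through the subcutaneous adipose tissue of young bulls. They are 2 of the 25670 identifiers counted, and were picked out because they had been put forward as PPARG and SREBF1, a pair of transcription factors of fat cells. No table used here links an Ensembl identifier to a symbol, so neither name could be checked, and both genes are given by identifier throughout. The values of ENSBTAG00000020495 go against its proposed name in fat tissue, as it was listed with 0 reads in all 19 animals. ENSBTAG00000007884 was well covered, with 1019 to 5268 reads per animal, and did not pass the test for a difference between the nutritional treatments.

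As background on the proposed names, PPARG encodes the nuclear receptor PPARγ, which pairs with a retinoid X receptor on DNA and is required for precursor cells to become fat cells. It is highly expressed in white adipose tissue, where it drives genes of lipid uptake and storage. SREBF1 encodes SREBP-1, a membrane-bound factor that is cut and released to the nucleus, where it raises the transcription of fatty acid synthesis enzymes. Insulin raises the activity of the SREBP-1c form.

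The tissue came from Holstein Friesian males of about 126 days of age. The study blocked calves on sire, farm, weight and age and put them on a high or a low plane of nutrition, differing in milk replacer and concentrate. Libraries of 10 high and 9 low animals, 1 per animal, are analysed here, and the labels give growth rates of 1.08 kg/day for high and 0.5 kg/day for low. The mean gain that the study reports for its low group is slightly above that label. A further low animal of the study was not analysed here. All animals were of the same breed and sex, and no treatment other than the diet is given in the labels. The samples were pieces of whole tissue, so fewer cells that express a gene and less RNA per cell cannot be told apart. In stained sections the study reported far fewer and smaller adipocytes in low than in high animals. How this difference in cell content bears on the levels given here was not tested.

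The high libraries held 8608800 to 17691547 counted reads and the low libraries 7656100 to 12348770. Mean depth was greater in high animals (exact permutation test of the means, two-sided, 92378 splits of the animals, p = 0.0251). Trimmed mean of M-values (TMM) scaling factors, which correct for a few abundant genes taking a large share of reads, were 0.829 to 0.987 in high and 1.05 to 1.15 in low animals. The treatments did not overlap in this factor. The first axis of a multidimensional scaling of 500 genes was signed so that the mean of high animals was above that of low animals. On this axis 2 of the 10 high animals, D64 and D75, had negative values, as did all 9 low animals. Results for ENSBTAG00000007884 are therefore also given without this pair. Markers of fat cells and of other cell types were not analysed here, again because identifiers could not be linked to symbols.

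ENSBTAG00000020495 had no counted read in any of the 10 high or 9 low animals. A count of 0 allows up to 3 reads, which is 0.170 CPM (read counts scaled to the size of the library) in the largest library, D72, and 0.392 CPM in the smallest, D78. Over the 214669482 reads of all animals together the limit is 0.0140 CPM. These limits cover counting error only. It was among the 6991 of the 25670 identifiers listed (27.2%) that had no read in any animal. It was below the filter for testing (at least 5 CPM in at least 9 libraries), so no difference between treatments could be examined, and no ratio of the 2 identifiers was taken. A count of 0 for this identifier is not a measurement of PPARG, since the link between them was not checked.

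ENSBTAG00000007884 passed the filter. Its TMM-normalised level in the high animals was 180 CPM in D61, 275 in D62, 202 in D63, 153 in D64, 232 in D65, 192 in D71, 362 in D72, 190 in D73, 323 in D74 and 136 in D75. D72 and D74 were the highest of the high animals, and D75 and D64 the lowest. In the low animals its level was 264 CPM in D66, 104 in D67, 223 in D68, 155 in D69, 130 in D70, 167 in D76, 149 in D77, 293 in D78 and 307 in D79. The low animals spread from D67 to D79 over much the same range. Only D72 and D74 lay above every low animal, and 2 low animals, D67 and D70, lay below every high animal. This depended on the scaling. With total counts in place of TMM, no high animal lay above every low animal. Then 3 low animals, D66, D78 and D79, lay above every high animal, and 1, D67, lay below every high animal.

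**Figure D1:**
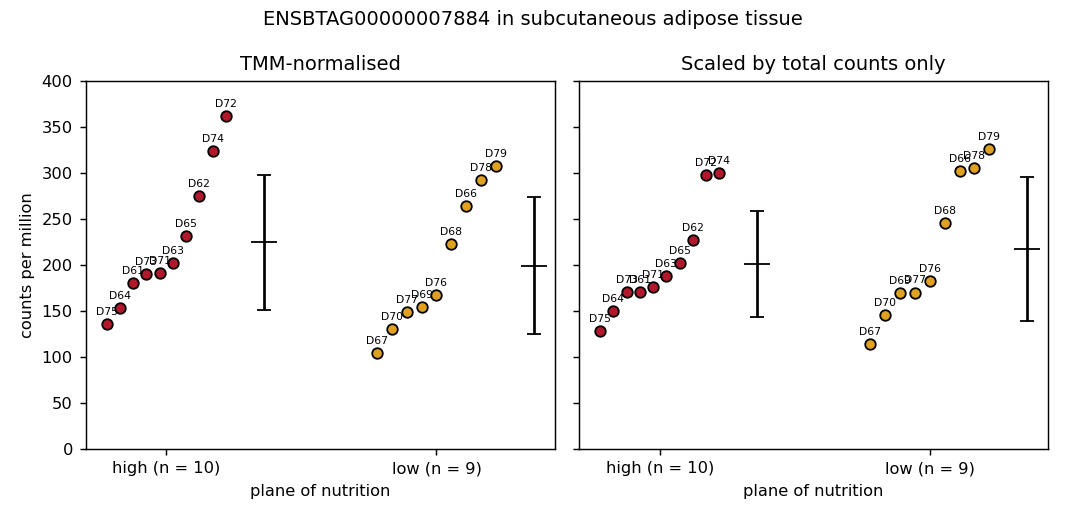
Level of ENSBTAG00000007884 in CPM (vertical axis, from 0) for each animal on the high and low plane of nutrition, with TMM scaling on the left and scaling by total counts on the right. Points are animals, and the dash and bar beside them are the mean and SD (n = 10 high, n = 9 low). The treatments overlap in both panels, with means of 224 and 199 CPM on the left and of 201 and 218 CPM on the right.

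The mean was 224 ± 73.9 CPM (SD, n = 10) in high and 199 ± 74.7 CPM (SD, n = 9) in low animals, with medians of 197 and 167 CPM. The difference between the means was smaller than the SD of either treatment. The log2 fold change of low relative to high was -0.17 (SE 0.217), with a 95% interval from -0.62 to 0.28. As a ratio this is 0.887, with an interval from 0.649 to 1.21. The adjusted p-value was 0.552 in the edgeR quasi-likelihood F test with Benjamini-Hochberg adjustment over 10064 genes. In the same comparison 3746 of the 10064 genes (37.2%) passed at an adjusted p below 0.05, so a lack of a call was shared with the larger part of the genes tested. With log2 library size as a further term, 2031 genes passed. With total counts in place of TMM, 5565 of the 10064 genes passed, so there the uncalled genes were the smaller part. The interval leaves out a halving and a doubling, but a moderate change in either direction lies within it.

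The spread between animals was wide for this gene. Its biological coefficient of variation, the part of the spread beyond counting error, was 33.6%, against a median of 22.8% over the genes tested, and 81.5% of those genes varied less. With over 1000 reads in every library, counting error was a small part of that spread. By Dixon's test, neither the highest nor the lowest animal of either treatment stood apart from the others.

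The sign of the difference followed the scaling of the libraries. With total counts in place of TMM, the mean was 201 ± 58.1 CPM (SD, n = 10) in high and 218 ± 78.4 CPM (SD, n = 9) in low animals. The log2 fold change was then 0.12 (SE 0.201), with an adjusted p of 0.646 in the edgeR quasi-likelihood test. Total-count scaling also moved the median gene tested from a log2 fold change of 0.02 to 0.30. A change of scaling shifts the fold changes of all genes by nearly the same amount. ENSBTAG00000007884 therefore stayed at -0.19 relative to that median gene under both scalings, which is not separate evidence. Its level is thus given as lower or higher in low animals only with the scaling named, and neither difference passed the test.

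**Figure D2:**
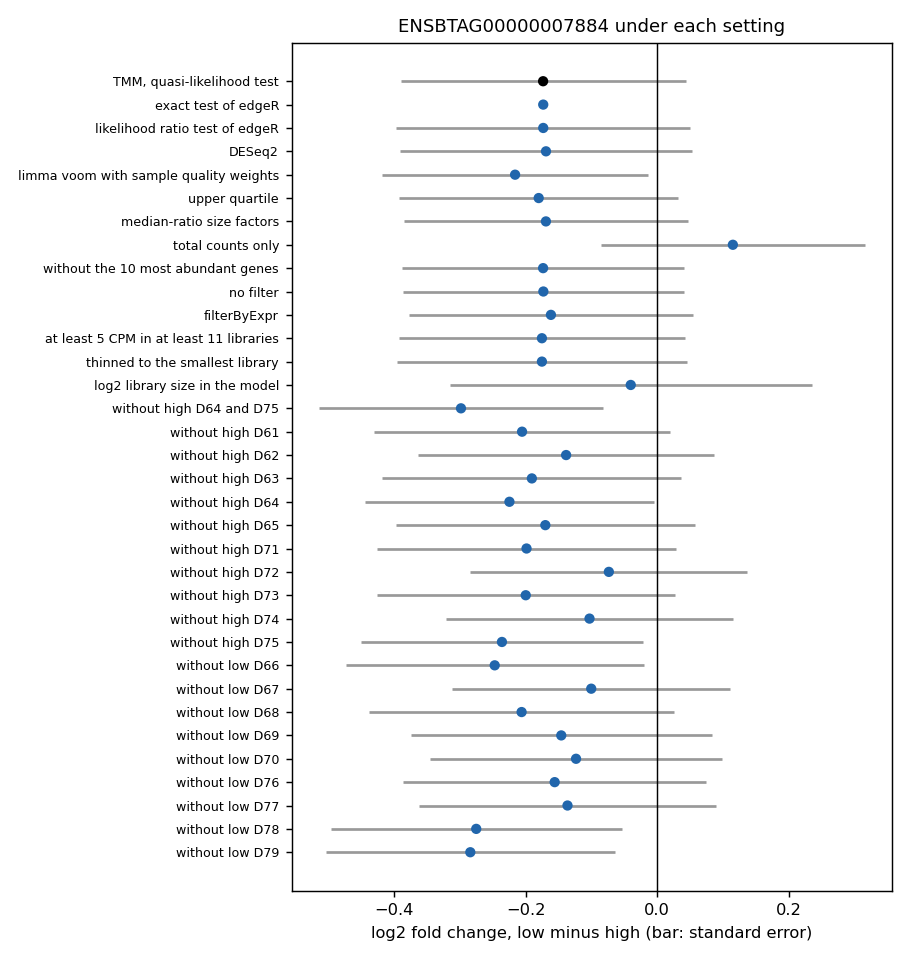
Log2 fold change of ENSBTAG00000007884, low minus high (horizontal axis), with its standard error as a bar where the method gives one, for each way of processing and for each fit that left out 1 animal (vertical axis). The TMM value of -0.17 is the black point at the top, total-count scaling is the only setting to the right of 0 (at 0.12), and the fits without 1 animal lie between -0.28 and -0.07.

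Without D64 and D75 the log2 fold change of ENSBTAG00000007884 was -0.30 (SE 0.216), with an adjusted p of 0.281 in the edgeR quasi-likelihood test. The pair had the lowest levels of the high animals, so the difference was larger without them, but it still missed the threshold. Leaving out each animal in turn gave values from -0.28, without D79, to -0.07, without D72, and adjusted p-values of 0.324 to 0.813. None of these 19 fits called the gene.

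Over all 10 high animals, library size moved with the level of ENSBTAG00000007884, but the relation did not pass the test in every subset. Over these 10 animals, log2 CPM and log2 library size had a Pearson r of 0.703 (permutation p = 0.0242, adjusted 0.0485) and a Spearman rho of 0.733 (permutation p = 0.0204, adjusted 0.0485), adjusted over 4 relations. Without D65 and D72, the 2 animals farthest from the median library size, r was 0.589 (exact permutation p = 0.122, n = 8), so the relation did not pass the test without them. Nor did the relation pass without D64 and D75 (r = 0.510, exact permutation p = 0.197, n = 8). Among the 9 low animals r was -0.461 (exact permutation p = 0.213, adjusted 0.270) and rho -0.417 (exact permutation p = 0.270, adjusted 0.270). With library size as a term beside diet, the log2 fold change was -0.04 (SE 0.275), with an adjusted p of 0.934 in the edgeR quasi-likelihood test. This fit took the relation with library size to be the same in both treatments, although r differed in sign between them. As the high libraries were also larger, diet and library size cannot be fully told apart here. The level and the library size share the same reads, and whether the relation differed between treatments was not tested.

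**Figure D3:**
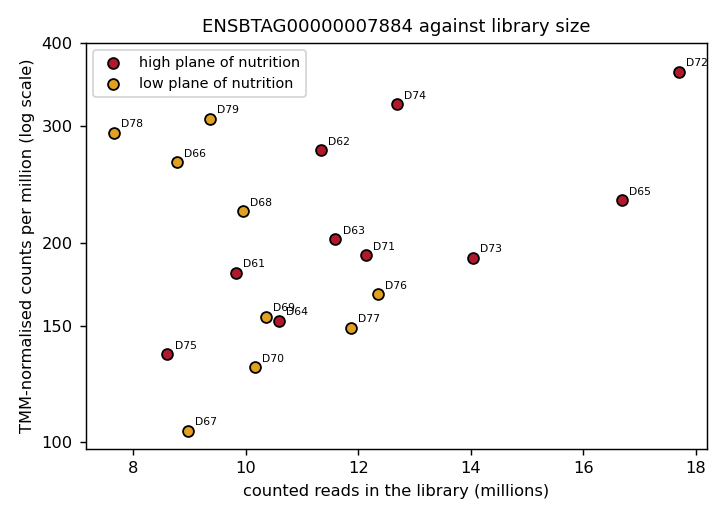
TMM-normalised level of ENSBTAG00000007884 in CPM (vertical axis, log scale) against the number of counted reads in the library (horizontal axis), with 1 point per animal coloured by plane of nutrition. The lowest high animal, D75, has the smallest high library and the highest, D72, the largest (Pearson r = 0.703 over the high animals), while r was -0.461 over the low animals.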

How the data were processed

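Single-end RNA-seq libraries of subcutaneous adipose tissue from 19 bulls are analysed here, and a further low animal of the study was not analysed here. The authors aligned reads to UMD3.1 with STAR, kept unique alignments with few mismatches and deposited raw, unnormalised read counts of each Ensembl gene, made with HTSeq, in a file for each animal. Groups came from the sample titles. The reference table used here lists 37063 genes, of which 0 carry an Ensembl identifier, so 0 of 25670 identifiers were matched. The planned gene lists, marker lists and most similar genes are therefore not analysed here, and no sequence is printed. The planned ratio and correlation of the 2 identifiers were not taken, because ENSBTAG00000020495 had no reads.

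Genes reaching 5 CPM in 9 or more libraries were tested in R 4.3.3 with edgeR 4.0.16 (TMM, robust dispersions, quasi-likelihood F test, diet as the only term). A value of 5 CPM is 38.3 to 88.5 reads. Intervals use the moderated degrees of freedom. DESeq2 1.42.0 and limma 3.58.1 were alternatives. The scripts were tested on simulated data. The identifiers and tests were chosen with earlier results of these data known, and the relation with library size was added after seeing the data. The smallest chi-square per degree of freedom between libraries of 1 treatment was 25.4, so no pair within a treatment was a repeat. Pairs across treatments were not compared. Sequencing lanes, sires and farms were not used here.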

Additional observations from a re-analysis of the deposited data

How the results depend on the processing

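ENSBTAG00000007884 was not called at an adjusted p below 0.05 in any of 14 alternatives, where adjusted p-values ran from 0.281 to 0.934, nor in 19 fits that each left out 1 animal, where its log2 fold change ran from -0.2841 to -0.0734. It was negative in 13 of the 14. Scaling by total counts turned it to 0.1152, a shift that the median of all genes shared. The number of genes called, 3746, fell to 2031 with log2 library size in the model, and was 3216 to 3989 when 1 animal was left out. The other alternatives left that number within 1.5 times, the highest being 5565 with total counts in place of TMM. In the high animals, Pearson r of level and library size was 0.665 with total counts (permutation p = 0.0358). Spearman rho was then 0.624 (permutation p = 0.0600) and did not pass. Without D64 and D75, r was 0.510 (exact permutation p = 0.197). In the low animals r was -0.436 with total counts (exact permutation p = 0.241) and -0.293 without D76 and D78 (exact permutation p = 0.534). The causes were not tested. The blocks of the study could not be used in the analysis, because the labels do not give the block, sire or farm of an animal. For ENSBTAG00000020495 no alternative gives a value, as it has no reads.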
